A study of Mus musculus with 8 samples.

Results

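Genes of the cell cycle and of DNA replication were followed in intervertebral discs of mice with proteoglycan-induced spondylitis, a model in which an immune response to injected cartilage proteoglycan inflames the spine. The set holds 49 genes, taken as a list of cyclins, cyclin-dependent kinases (CDKs) and their inhibitors, replication proteins and mitotic proteins. Of these, 48 were measured, among 18193 genes in all. A gene counted as measured where at least 1 probe set of the array names it and no other gene, and Ccnb1 had none. The data are Affymetrix arrays of total RNA from 8 samples of female BALB/c discs, 3 naive and 5 immunized. Immunized mice received cartilage proteoglycan (100 µg of protein) with 2 mg of the adjuvant DDA on days 0, 21 and 42, and naive mice were matched for age. The labels name no group that received adjuvant alone, so responses to the adjuvant and to the proteoglycan cannot be told apart. Each sample pooled 6 lumbar discs, and for 2 of the samples (naive replicate 3 and immunized replicate 1) the description joins a pair of sample numbers. Replicates are called biological in the labels.

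As background, a cell that enters division first makes D cyclins, which with CDK4 and CDK6 phosphorylate the retinoblastoma protein and so free the E2F transcription factors. E2F then switches on cyclin E and the genes of DNA replication, and later a complex of B-MYB, the MuvB proteins and FOXM1 switches on the genes of mitosis. CDK inhibitors hold this sequence back. The adult disc is a poorly vascularised tissue whose cells rarely divide, next to vertebral bone marrow, where precursors of blood cells divide all the time.

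Promoters of cell cycle genes are known for 3 short motifs: the CCAAT box (CCAAT), the CHR element (TTTGAA), which the MuvB complexes bind, and the E2F site, searched here as TTTCCCGC, TTTCGCGC, TTTGCCGC and TTTGGCGC. Both strands were searched in the 250 bases before each start site, in RefSeq sequences of build GRCm38.p6, which held 42 promoters of 38 of the 49 genes. A CCAAT box stood in 31 of these 42 promoters (73.8%), against 33.8% of all 32851 promoters of the same length. A CHR element stood in 9 (21.4%, against 16.0% of all) and an E2F site in 6 (14.3%, against 1.86%). CCAAT box and CHR together stood in 9 (21.4%, against 5.55%). A match describes letters and is not evidence of binding. In the promoters below, matches are in capitals, 5′ to 3′ on the gene's strand, the last base lying next to the start site. The 4 promoters were chosen after values were seen and hold more matches than most of the 42. They combine a CCAAT box with another motif, while most of the 42 had no CHR element and no E2F site. They belong to Mki67, the gene that rose (chr7:135716380-135716629, minus strand), to the mitotic kinase gene Cdk1 (chr10:69352913-69353162, minus strand), to the topoisomerase gene Top2a (chr11:99024190-99024439, minus strand) and to the helicase gene Mcm6 (chr1:128359706-128359955, minus strand).
Mki67: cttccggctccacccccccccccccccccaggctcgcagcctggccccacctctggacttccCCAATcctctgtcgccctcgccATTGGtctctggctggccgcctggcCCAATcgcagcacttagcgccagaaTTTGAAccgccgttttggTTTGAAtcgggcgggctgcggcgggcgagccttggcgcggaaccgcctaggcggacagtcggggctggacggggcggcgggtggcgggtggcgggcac
Cdk1: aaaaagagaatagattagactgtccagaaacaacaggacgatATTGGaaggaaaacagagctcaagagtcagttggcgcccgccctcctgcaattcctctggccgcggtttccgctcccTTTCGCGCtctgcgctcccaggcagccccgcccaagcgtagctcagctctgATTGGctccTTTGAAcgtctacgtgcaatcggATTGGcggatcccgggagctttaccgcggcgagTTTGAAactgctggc
Top2a: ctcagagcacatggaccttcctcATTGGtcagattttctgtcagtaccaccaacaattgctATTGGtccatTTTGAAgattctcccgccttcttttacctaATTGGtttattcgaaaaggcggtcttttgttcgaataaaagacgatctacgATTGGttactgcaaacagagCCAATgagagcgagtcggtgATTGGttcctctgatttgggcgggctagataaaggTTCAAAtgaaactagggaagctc
Mcm6: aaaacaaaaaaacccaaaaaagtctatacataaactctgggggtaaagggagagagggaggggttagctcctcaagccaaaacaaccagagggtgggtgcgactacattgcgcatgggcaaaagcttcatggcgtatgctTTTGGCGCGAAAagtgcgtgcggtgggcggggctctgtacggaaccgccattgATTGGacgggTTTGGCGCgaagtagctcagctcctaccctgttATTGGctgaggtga
The promoter of Mki67 has 3 CCAAT boxes and 2 CHR elements, and that of Top2a has 6 and 2. Cdk1, with 3 CCAAT boxes, 2 CHR elements and 1 E2F site, is the gene of the set with all 3 motifs (1 of 42 promoters or 2.38%, against 0.0974% of all). In Mcm6 there are 2 CCAAT boxes and 3 E2F matches, of which a pair on opposite strands overlaps. Matches of different motifs did not overlap in any of the 42 promoters.

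Values are read as log2, the usual scale of the RMA method by which they were made (no label states the log base), relative to each probe set's median over the 8 arrays, and a gene is the mean of its probe sets, so on this reading a difference of 1 is a doubling and levels of different genes cannot be compared. Differences are immunized minus naive with limma's standard error, and a gene is said to rise or fall where the Benjamini-Hochberg adjusted p over all 18193 genes was under 0.05. The spacing of the printed numbers still gives a coarse level. By it, 42 of the 48 genes had a probe set at 8 or more (log2) on every array, and the other 6 had one from 4 to 8. All 10 chondrocyte markers and 5 of 6 measured markers of nucleus pulposus and notochord also reached 8 or more, while T and Noto were not measured. That level was not limited to disc markers. All 9 granulocyte precursor, 6 of 7 erythroid, 5 of 6 megakaryocyte, all 5 osteoblast and all 8 fibroblast markers measured reached it too. Fewer T cell (2 of 7) and endothelial (3 of 7) markers did. Over all genes, array medians lay between -0.012 and 0.016 and the median difference was -0.035, with 43.9% of genes above 0. Naive replicate 1 had the widest spread of values about 0 (SD 0.41, against 0.21 to 0.32 in the other samples). The array's control probe set for the 5′ part of 18S ribosomal RNA was high in naive replicate 1 (4.15) and in immunized replicates 1 (3.41) and 5 (2.97), and read -1.67 to 0.44 elsewhere. The 3′ minus 5′ difference of the control probe sets was largest in immunized replicate 5, both for Gapdh (0.57, against -0.20 to 0.09 elsewhere) and for actin (0.19, against -0.17 to 0.024). The part of these differences in the results was not tested.

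Of the 48 genes, 1 rose, the proliferation marker Mki67, and 1 fell, the D cyclin gene Ccnd2. Among all genes 4.46% rose and 4.68% fell, so the share of the set that passed was not above the background. A positive difference was found in 45 of the 48 genes and a negative one in 3 (Ccnd1, Ccnd2 and Cdkn1c), with a median of 0.36. Most of these genes varied together across the samples, so the 45 are not independent. At an unadjusted p under 0.05, 9 were higher (Ccne2, Pcna, Tyms, Bub1, Ttk, Cenpe, Kif11, Kif23 and Mki67), where 12.9% of all genes were, and 1 lower (Ccnd2), where 18.2% were. The groups did not overlap in 3 genes that were higher (Ccne2, Pcna and Mki67), against 9.39% of all genes, and in 1 that was lower (Ccnd2), against 14.0%. In bulk tissue, more cells of a dividing type and more RNA per cell cannot be told apart.

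The spread within the groups was wide. The median SD of the 48 genes was 0.45 among immunized and 0.28 among naive samples, against 0.14 in both groups over all genes. Leaving aside the D cyclins and the CDK inhibitors, 42 genes remain, and all 42 had a positive difference (median 0.42). Their mean was 0.096, -0.39 and -0.35 in naive replicates 1 to 3 and 0.26, -0.31, 0.78, -0.092 and 0.53 in immunized replicates 1 to 5. Immunized replicates 3 and 5 were thus the highest samples, immunized replicate 2 lay among the low naive samples, and naive replicate 1 lay above immunized replicates 2 and 4.

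Gene by gene the order was nearly constant. Immunized replicate 3 was the highest of all samples in 38 of the 42 genes and immunized replicate 5 in the other 4. Both together were the 2 highest in 37, the exceptions being Foxm1, Mcm7, Gins1, Rrm1 and Nusap1. Immunized replicate 2 was the lowest immunized sample in 39. Naive replicate 1 was the highest naive sample in 37 genes, all but Ccne2, Rrm1, Cenpe, Tpx2 and Mki67, and it lay above immunized replicate 4 in 30. Every one of the 42 genes lay above all naive samples in immunized replicate 3, as did 39 genes in replicate 5, 27 in replicate 1, 10 in replicate 4 and 4 in replicate 2.

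**Figure D1:**
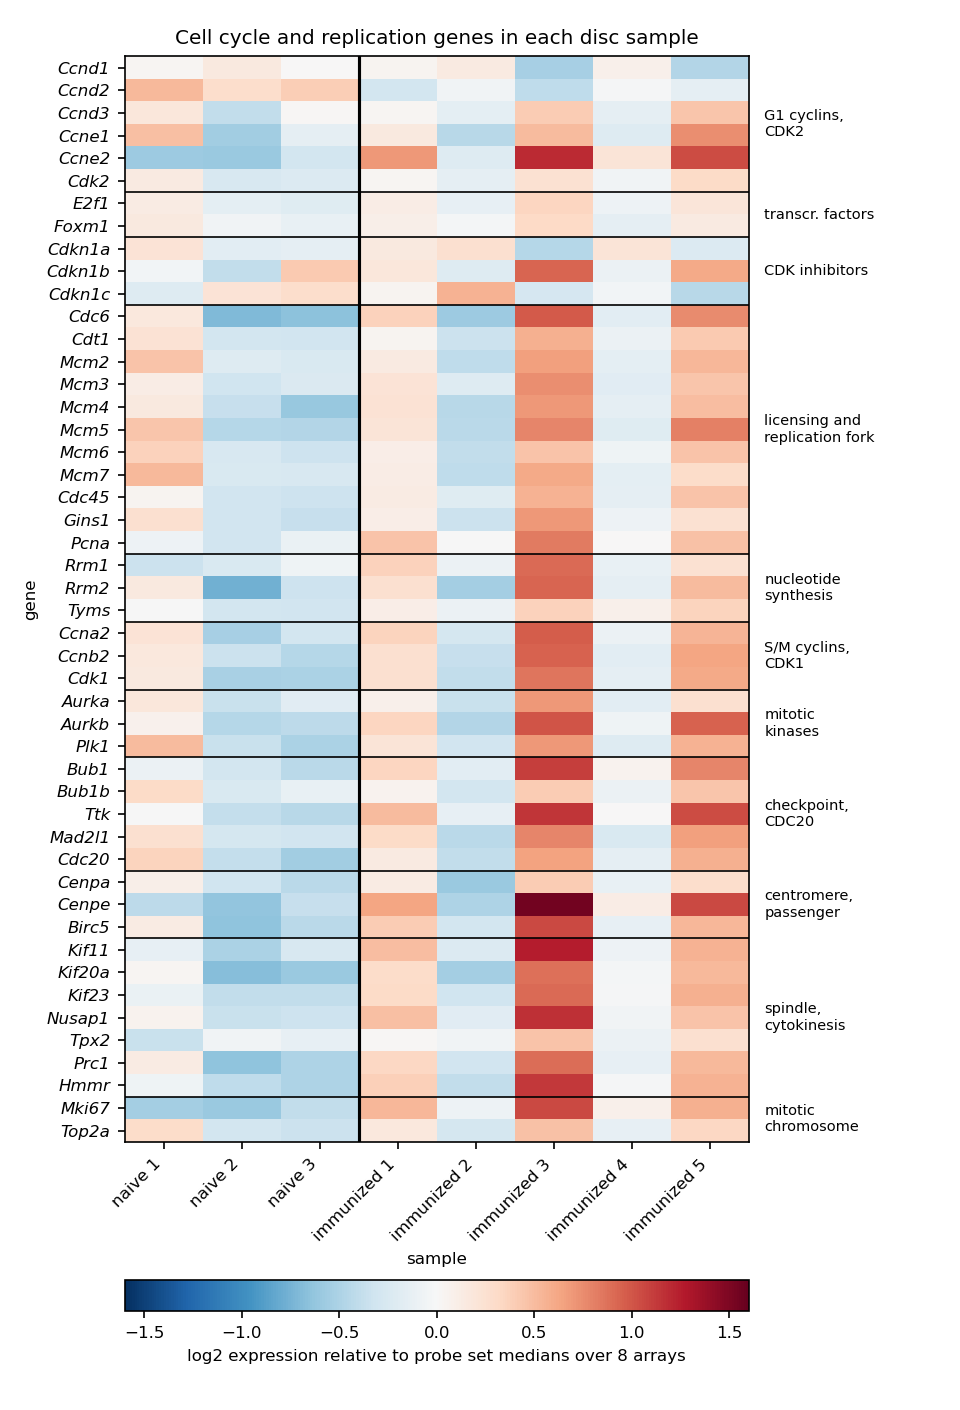
Log2 expression of the 48 measured genes (rows, grouped by role) in the 8 samples (columns, naive left of the thick line), relative to probe set medians, with red above and blue below the median. The columns of immunized replicates 3 and 5 are red in most rows and that of immunized replicate 2 is blue, while naive replicate 1 is red in more rows than the other 2 naive samples.

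Single samples therefore moved the counts. Without immunized replicate 2, 7 of the 48 genes rose (Ccne2, Tyms, Bub1, Ttk, Cenpe, Kif23 and Mki67), where 7.11% of all genes did. With array weights, which gave naive replicate 1 the lowest weight (0.27) and immunized replicate 1 the highest (3.98), 27 rose, where 13.7% of all genes did. Without naive replicate 1, the groups did not overlap in 23 genes that were higher, against 14.4% of all genes, and in 1 that was lower, against 20.0%. Without immunized replicates 3 and 5, the samples with the highest values, no gene of the set rose or fell in limma. Of all genes, 0.863% rose and 0.346% fell. At an unadjusted p under 0.05, 2 of the set were higher, where 10.1% of all genes were, and 1 was lower, where 2203 of all genes were. The 48 differences had a median of 0.12, and 36 were positive. That omission was chosen after the data were seen.

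**Figure D2:**
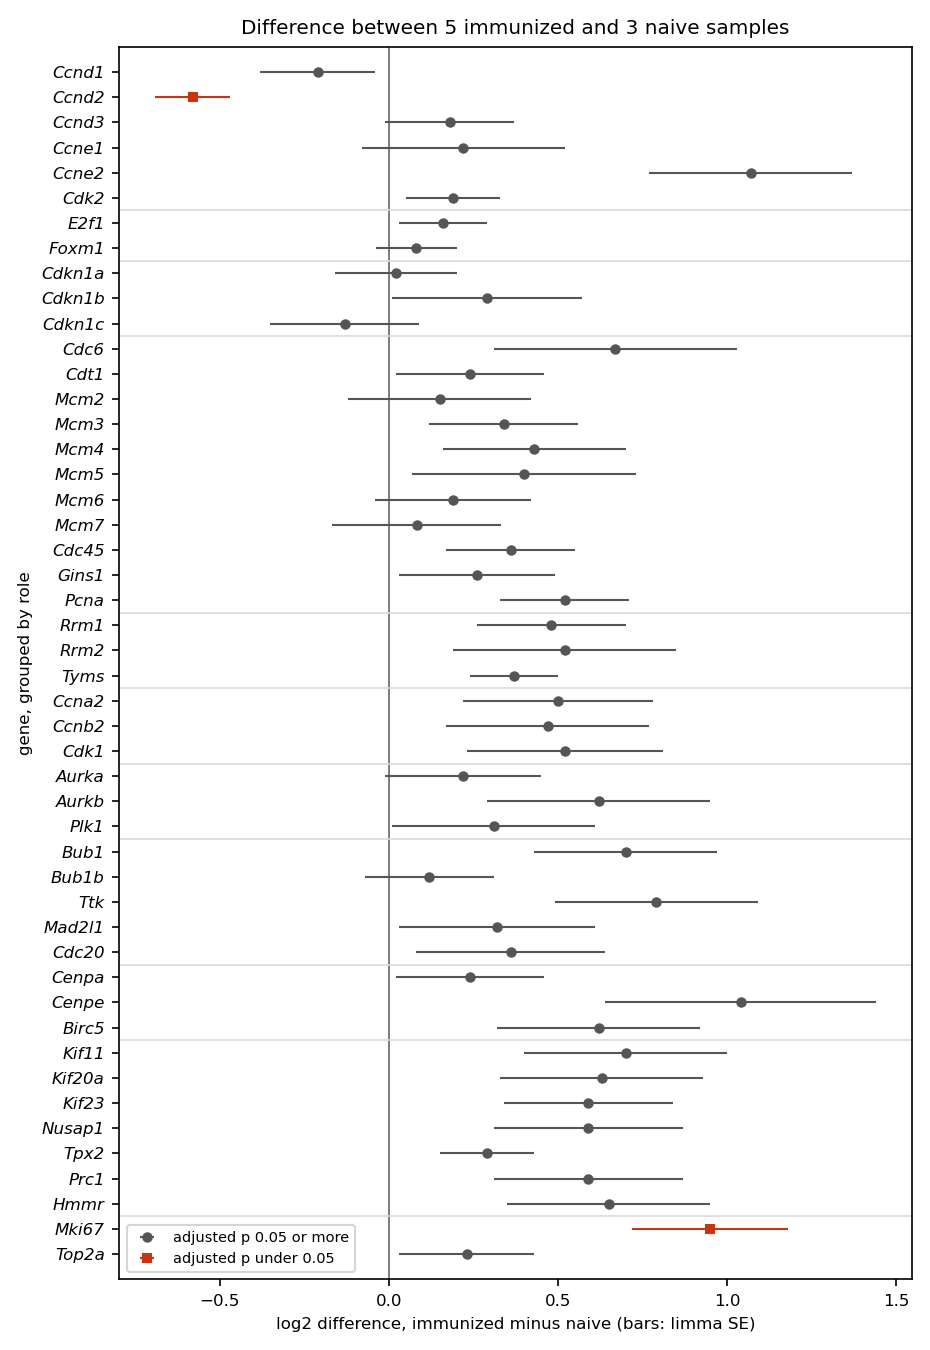
Log2 difference, immunized minus naive (x axis), of the 48 genes (y axis, grouped by role), with bars for limma's standard error. Ccnd2 at -0.58 and Mki67 at 0.95 (red squares) have an adjusted p under 0.05, and 45 of the 48 points lie to the right of 0.

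Mki67 encodes Ki-67, a protein that coats mitotic chromosomes and marks cells in division. It read -0.55, -0.60 and -0.39 in naive replicates 1 to 3 and 0.53, -0.08, 1.06, 0.08 and 0.57 in immunized replicates 1 to 5. The lowest immunized sample, replicate 2, lay above the highest naive one. Group means were -0.52 ± 0.11 (SD, n = 3) in naive and 0.43 ± 0.45 (SD, n = 5) in immunized discs, a rise of 0.95 ± 0.23 or 1.93-fold (limma, adjusted p = 0.0403). Its single probe set makes this value rest on 1 measurement per array. Naive replicate 1 was the highest naive sample in 37 of the 42 genes, but not in Mki67. In that sample probe sets of the same gene could disagree, as in Kif11 (0.078, 0.18 and -0.66), and Mki67 has no second one to compare. The call was lost under quantile normalization (adjusted p = 0.0524) and without naive replicates 1, 2 and 3 (0.103, 0.114 and 0.0826) or immunized replicates 1 and 5 (0.0963 and 0.0818), while the difference kept to 0.79 to 1.08 when any 1 sample was left out.

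Top2a, which encodes the topoisomerase that untangles chromosomes in mitosis, read 0.29, -0.29 and -0.34 in naive and 0.17, -0.28, 0.47, -0.13 and 0.33 in immunized samples. Naive replicate 1 lay among the high immunized samples, and the groups overlapped (difference 0.23 ± 0.20, adjusted p = 0.482). Its 3 probe sets differed in direction, with differences of -0.33, 0.35 and 0.65.

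Among the G1 cyclins, Ccnd2 was the gene that fell. It read 0.52, 0.28 and 0.39 in naive and -0.29, -0.058, -0.41, -0.022 and -0.15 in immunized samples. All 5 immunized samples were below all naive ones. The means were 0.40 ± 0.12 (SD, n = 3) in naive and -0.19 ± 0.16 (SD, n = 5) in immunized discs, a difference of -0.58 ± 0.11, or 0.668 times the naive level (limma, adjusted p = 0.0233). Each of its 7 probe sets was lower, by -0.19 to -1.08, and 4 of them passed when all 45037 probe sets were tested singly. In that test 2.89% of all probe sets fell and 3.30% rose, the latter including 2 probe sets of the set, those of Mki67 and 1 of 3 of Kif23. The call of Ccnd2 was lost without naive replicates 1, 2 and 3 (adjusted p = 0.0643, 0.0688 and 0.064) or immunized replicates 1 and 5 (0.0689 and 0.0509), while the difference lay between -0.64 and -0.52 in the single omissions.

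The other D cyclins differed from Ccnd2 in which samples were low. Ccnd1 read 0.037, 0.15 and 0.0023 in naive and 0.043, 0.14, -0.53, 0.083 and -0.47 in immunized samples (difference -0.21 ± 0.17, adjusted p = 0.439). Immunized replicates 3 and 5 were low in Ccnd1 and the other 3 lay inside the naive range. For Ccnd3, with 0.18, -0.40 and 0.016 in naive and 0.032, -0.16, 0.41, -0.14 and 0.44 in immunized samples, replicates 3 and 5 were instead the highest (difference 0.18 ± 0.19, adjusted p = 0.53).

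Cyclin E with CDK2 drives the entry into DNA replication. Ccne2 had the largest difference of the set, at 1.07 ± 0.30 or 2.10-fold, but its adjusted p was 0.055. It read -0.58, -0.59 and -0.29 in naive and 0.69, -0.21, 1.20, 0.21 and 1.04 in immunized samples, so that the groups did not overlap. Immunized replicate 2 was the lowest of the immunized samples. Without it, Ccne2 rose by 1.27 (adjusted p = 0.011). Ccne1 had a difference of 0.22 ± 0.30, with naive replicate 1 at 0.48 next to immunized replicate 3 at 0.50. The kinase gene Cdk2 had one of 0.19 ± 0.14.

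E2f1 and Foxm1 encode transcription factors of the S phase and of the mitotic genes. E2f1 read 0.13, -0.16 and -0.20 in naive and 0.12, -0.13, 0.34, -0.087 and 0.19 in immunized samples, and Foxm1 read 0.15, -0.051 and -0.12 and 0.093, -0.036, 0.32, -0.15 and 0.14. In both, naive replicate 1 lay at the level of immunized replicates 1 and 5. Their differences were small, 0.16 ± 0.13 and 0.081 ± 0.12, and neither passed (adjusted p = 0.421 and 0.674).

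None of the 3 CDK inhibitors separated the groups. Cdkn1a, which encodes p21, the inhibitor induced by p53, read 0.22, -0.17 and -0.15 in naive and 0.16, 0.25, -0.46, 0.21 and -0.22 in immunized samples, with replicates 3 and 5 the lowest of the immunized. Its difference was 0.021 ± 0.18 (adjusted p = 0.946) and its 2 probe sets moved apart, at -0.26 and 0.30. Cdkn1b, the gene of p27, read -0.046, -0.39 and 0.42 and 0.18, -0.21, 0.93, -0.094 and 0.61, with replicates 3 and 5 the highest (difference 0.29 ± 0.28, adjusted p = 0.509). Cdkn1c, the gene of p57, read -0.21, 0.22 and 0.28 and 0.038, 0.56, -0.27, -0.038 and -0.45 (difference -0.13 ± 0.22, adjusted p = 0.718). Immunized replicates 3 and 5 were the lowest of the immunized samples in Cdkn1c, as in Cdkn1a.

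**Figure D3:**
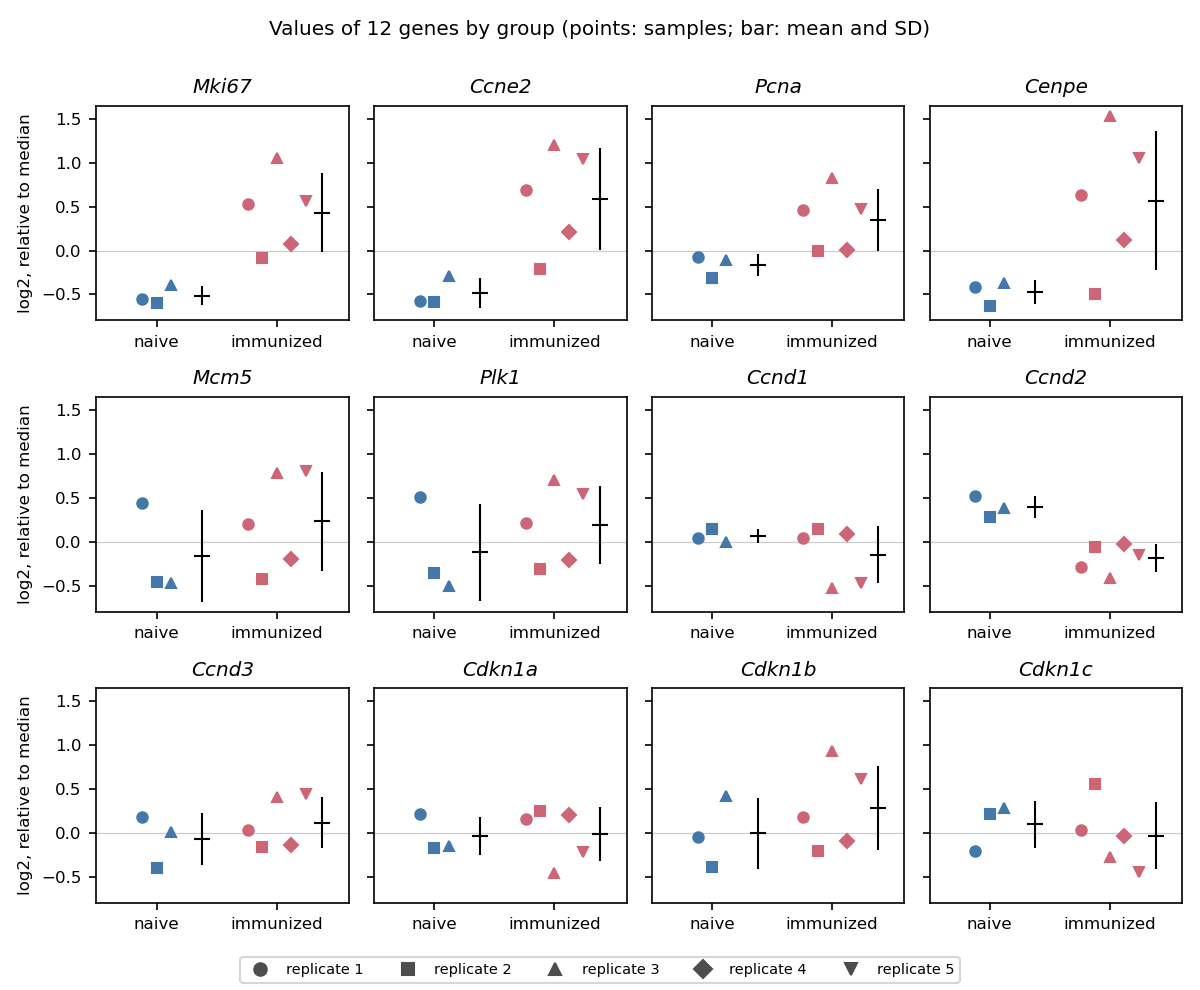
Log2 values relative to probe set medians (y axis) of 12 genes in 3 naive and 5 immunized samples, with 1 symbol shape per replicate number and a bar for the mean and SD of each group. Mki67, Ccne2, Pcna and Ccnd2 do not overlap between the groups, while in Mcm5 and Plk1 naive replicate 1 lies inside the immunized range.

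Replication begins when CDC6 and CDT1 load the MCM helicase onto origins, which CDC45 and the GINS complex then complete. All 11 genes of licensing and of the replication fork had positive differences, from 0.082 to 0.67 (median 0.34). None passed in limma, and 1, Pcna, was higher at an unadjusted p under 0.05. Pcna encodes the sliding clamp of the DNA polymerases. It read -0.076, -0.31 and -0.11 in naive and 0.46, -0.0013, 0.83, 0.0013 and 0.47 in immunized samples, with the lowest 2 immunized samples just above the highest naive one (difference 0.52 ± 0.19, adjusted p = 0.105). The helicase genes were farther from a group difference, with Mcm4 at 0.43 ± 0.27, Mcm5 at 0.40 ± 0.33, Mcm3 at 0.34 ± 0.22, Mcm6 at 0.19 ± 0.23, Mcm2 at 0.15 ± 0.27 and Mcm7 at 0.082 ± 0.25. Mcm7 read 0.52, -0.24 and -0.26 in naive and 0.12, -0.41, 0.60, -0.16 and 0.29 in immunized samples. Naive replicate 1 was the second highest of its 8 values. The loader gene Cdc6 had the largest difference of the 11 at 0.67 ± 0.36 (adjusted p = 0.24), and Cdt1, Cdc45 and Gins1 had 0.24 ± 0.22, 0.36 ± 0.19 and 0.26 ± 0.23.

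Deoxynucleotides for replication come from ribonucleotide reductase (Rrm1 and Rrm2) and thymidylate synthase (Tyms). Tyms read -0.0094, -0.30 and -0.31 in naive and 0.11, -0.10, 0.37, 0.075 and 0.35 in immunized samples (difference 0.37 ± 0.13, adjusted p = 0.0959). Immunized replicate 2 was its one immunized sample inside the naive range. Of its 4 probe sets, 2 differed by 0.56 and 0.92 and 2 by -0.049 and 0.041. Rrm2 read 0.15, -0.77 and -0.33 and 0.26, -0.54, 0.93, -0.14 and 0.50 and overlapped more (difference 0.52 ± 0.33, adjusted p = 0.312). Rrm1 had a difference of 0.48 ± 0.22. In naive replicate 1 its probe sets disagreed, with -0.97 in one and 0.22 in another.

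The cyclins of S phase and mitosis and their kinase CDK1 behaved alike among the samples. Cdk1, whose product starts mitosis, read 0.15, -0.52 and -0.51 in naive and 0.25, -0.39, 0.86, -0.15 and 0.60 in immunized samples (difference 0.52 ± 0.29, adjusted p = 0.252). Ccnb2 read 0.17, -0.35 and -0.46 and 0.26, -0.37, 0.94, -0.17 and 0.63 (difference 0.47 ± 0.30, adjusted p = 0.31). Ccna2 had a difference of 0.50 ± 0.28. In all 3, immunized replicates 1, 3 and 5 lay above every naive sample and replicates 2 and 4 did not.

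The groups overlapped in the genes of the mitotic kinases as well. Aurkb, the kinase of the chromosomal passenger complex, read 0.073, -0.46 and -0.42 in naive and 0.34, -0.47, 1.00, -0.073 and 0.95 in immunized samples, with immunized replicate 2 below all others (difference 0.62 ± 0.33, adjusted p = 0.239). Aurka, the kinase of the spindle poles, read 0.18, -0.36 and -0.18 and 0.083, -0.36, 0.69, -0.17 and 0.26 (difference 0.22 ± 0.23, adjusted p = 0.544). Plk1, which acts at several steps of mitosis, had a difference of 0.31 ± 0.30 with naive replicate 1 at 0.51, close to immunized replicate 5 at 0.55.

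The spindle checkpoint delays the separation of chromosomes until all are attached, and CDC20 ends it by activating the anaphase-promoting complex. Ttk, the checkpoint kinase also called MPS1, read -0.01, -0.38 and -0.45 in naive and 0.51, -0.13, 1.14, 0.01 and 1.04 in immunized samples. Only immunized replicate 2 lay inside its naive range (difference 0.79 ± 0.30, adjusted p = 0.114). Bub1 was alike, with a difference of 0.70 ± 0.27 (adjusted p = 0.118). Its relative Bub1b read 0.31, -0.25 and -0.12 and 0.052, -0.30, 0.40, -0.091 and 0.44 and differed by 0.12 ± 0.19 (adjusted p = 0.715), with probe sets from -0.26 to 0.38. Mad2l1 and Cdc20 had differences of 0.32 ± 0.29 and 0.36 ± 0.28.

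Among the centromere and passenger genes, Cenpe, a motor of the kinetochore, had the second largest difference of the set at 1.04 ± 0.40 or 2.06-fold (adjusted p = 0.115). It read -0.42, -0.63 and -0.37 in naive and 0.63, -0.50, 1.54, 0.12 and 1.06 in immunized samples. Immunized replicate 2 sat among the naive values and the other 4 were above them, and the SD of the immunized samples was 0.79. The probe sets of Cenpe read -0.12 and -0.72 in naive replicate 1. Cenpa, the histone variant of centromeres, read 0.09, -0.32 and -0.43 and 0.13, -0.59, 0.40, -0.12 and 0.28 (difference 0.24 ± 0.22, adjusted p = 0.493). Birc5, which encodes the passenger protein survivin, had a difference of 0.62 ± 0.30 (adjusted p = 0.197).

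The 7 genes of spindle motors, microtubule bundlers and cytokinesis had differences from 0.29 to 0.70 (median 0.59). None passed in limma, and 2, Kif11 and Kif23, were higher at an unadjusted p under 0.05. Kif23, a motor of the central spindle, read -0.11, -0.40 and -0.39 in naive and 0.31, -0.32, 0.90, -0.021 and 0.57 in immunized samples (difference 0.59 ± 0.25, adjusted p = 0.145). Its probe sets differed by 0.16, 0.39 and 1.22, and the last passed when tested singly (limma, adjusted p = 0.0492). In naive replicate 1 that probe set read -0.54, while the others read -0.098 and 0.31. Nusap1, which bundles spindle microtubules, read 0.056, -0.36 and -0.33 and 0.48, -0.18, 1.17, -0.056 and 0.46 (difference 0.59 ± 0.28, adjusted p = 0.19). The spindle motor gene Kif11 had 0.70 ± 0.30 and the hyaluronan and spindle protein gene Hmmr 0.65 ± 0.30. In naive replicate 1 a probe set of each read low, -0.66 in Kif11 and -0.71 in Hmmr, while their others read -0.022 to 0.30. Kif20a and Prc1, both of the central spindle, had 0.63 ± 0.30 and 0.59 ± 0.28. Tpx2, which activates Aurora A, had 0.29 ± 0.14. In naive replicate 1 its probe sets disagreed, with -1.16 and -0.90 in one pair and 0.45 and 0.18 in the other. Probe sets of opposite direction were found in 11 of the 48 genes (Cdk2, E2f1, Foxm1, Cdkn1a, Cdt1, Mcm6, Mcm7, Tyms, Aurka, Bub1b and Top2a).

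A wider list of 91 other cell cycle genes, of which 88 were measured, was fitted in the same way. Of the 88, 1 rose and 0 fell in limma (4.46% and 4.68% of all genes), and 81 had a positive difference (median 0.33). At an unadjusted p under 0.05, 20 were higher and 1 lower, against 12.9% and 18.2% of all genes. The groups did not overlap in 11 genes that were higher and in 0 that were lower, against 9.39% and 14.0%. The gene that rose was Smc4, a core subunit of condensin, which compacts mitotic chromosomes. It read -1.42, -0.81 and -0.48 in naive and 0.48, -0.091, 0.96, 0.091 and 0.69 in immunized samples (difference 1.33 ± 0.27, adjusted p = 0.0284). The groups did not overlap, and naive replicate 1 was the lowest sample. Its 3 probe sets were all higher, by 0.58 to 2.10. The call was lost without naive replicates 1, 2 or 3 (adjusted p = 0.078, 0.0849 and 0.0529) or immunized replicates 1 or 5 (0.0754 and 0.0604). With array weights 44 of the 88 rose (13.7% of all genes), and without immunized replicate 2, 15 did (7.11%). In the single omissions the difference of Smc4 lay between 1.07 and 1.54.

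Of the other kinetochore and condensin genes, Ndc80, a kinetochore subunit that binds microtubules, differed by 0.92 ± 0.26 (adjusted p = 0.0561), and the condensin genes Ncapg and Smc2 by 0.93 ± 0.28 and 0.85 ± 0.29 (adjusted p = 0.0679 and 0.0888). Of the spindle and cytokinesis genes, Cep55, which acts in abscission, differed by 1.00 ± 0.28, the kinesin gene Kif18a by 0.61 ± 0.19, Anln, whose product anillin scaffolds the cleavage furrow, by 0.64 ± 0.22 and Ckap2 by 0.70 ± 0.25 (adjusted p from 0.0569 to 0.0987). Lin9 and Lin54, subunits of the MuvB core, differed by 0.48 ± 0.16 and 0.46 ± 0.16, E2f3 by 0.29 ± 0.098 and the retinoblastoma relative Rbl1 by 0.33 ± 0.14. Among the origin genes the kinase gene Cdc7 had 0.53 ± 0.19, Orc2 of the origin recognition complex 0.31 ± 0.11, Gins4 0.25 ± 0.12 and Gmnn, which encodes the CDT1 inhibitor geminin, 0.55 ± 0.25. Among the fork genes Prim1 (primase) had 0.58 ± 0.22, Pola1 (DNA polymerase alpha) 0.47 ± 0.18, Rpa2 (single-strand binding) 0.32 ± 0.15 and the checkpoint kinase gene Chek1 0.35 ± 0.16. The CDK regulators with the largest moderated t were Cdkn2a, the INK4a and ARF locus, at -0.28 ± 0.11 (adjusted p = 0.13), the INK4 inhibitor gene Cdkn2d at 0.58 ± 0.26, the CDK1-inhibiting kinase gene Wee1 at 0.31 ± 0.14 and the phosphatase gene Cdkn3 at 0.65 ± 0.35.

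Several lists of blood cell markers were high in immunized replicate 3, and some of them in immunized replicate 5 too. The mean of the 6 measured megakaryocyte markers was 0.28, -0.34 and -0.21 in naive replicates 1 to 3 and 0.19, -0.26, 0.96, -0.21 and 0.61 in immunized replicates 1 to 5. That of 7 erythroid markers was 0.081, -0.42 and -0.12 in naive and 0.25, -0.23, 0.88, -0.21 and 0.21 in immunized samples. The erythroid markers were split. Hba-a1 was highest in naive replicate 1 (0.27, against 0.048 in immunized replicate 3) and the others in immunized replicate 3. In immunized replicate 5 they ranged from -0.40 (Slc4a1) to 0.56 (Epb42). In both lists immunized replicate 3 was the highest sample, and immunized replicates 2 and 4 lay below naive replicate 1. None of these 13 genes passed, and at an unadjusted p under 0.05 1 did, Tfrc, the transferrin receptor gene, which dividing cells also express. The 9 granulocyte precursor markers had means of 0.012, -0.57 and -0.80 in naive and 0.17, -0.18, 0.62, -0.012 and 0.58 in immunized samples. All 9 were higher at an unadjusted p under 0.05 (12.9% of all genes) and none passed in limma. Of the mature cells, 3 of 6 neutrophil and 4 of 10 macrophage markers rose (4.46% of all genes). The neutrophil markers, with means of -0.12, -0.65 and -0.74 in naive and 0.25, -0.15, 0.63, 0.083 and 0.70 in immunized samples, were likewise highest in immunized replicates 3 and 5. So was the mean of the 7 measured T cell markers. It was 0.05, -0.24 and -0.26 in naive and 0.039, -0.01, 0.32, -0.018 and 0.17 in immunized samples. The T cell markers were split. Cd3g rose (difference 1.03, limma, adjusted p = 0.0348) and Cd8b1 fell (-0.39, adjusted p = 0.0253). In immunized replicate 3, Cd3d and Cd3g were the highest of them, and the others read -0.0091 to 0.30. In immunized replicate 5, Cd3d read 0.99 and the others read -0.10 to 0.20. Whether any of these cells, or other cells, gave the high cell cycle values in immunized replicates 3 and 5 was not tested.

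Macrophage, B cell precursor and chondrocyte markers had another order of samples. The macrophage mean was -0.35, -0.77 and -0.79 in naive and 0.53, 0.00028, 0.23, 0.57 and 0.15 in immunized samples, highest in replicates 4 and 1. The 8 B cell precursor markers had their highest mean, 0.69, in naive replicate 1 and means from -0.28 to 0.16 elsewhere. The 10 chondrocyte markers, of which 5 fell (4.68% of all genes), had means of 0.38, 0.60 and 0.66 in naive and -0.42, 0.28, -0.86, -0.25 and -0.50 in immunized samples. Immunized replicate 3 was thus the lowest in the chondrocyte mean and the highest in the cell cycle mean. Among the immunized samples, replicate 2 was the reverse. Acan, Sox9, Hapln1 and Snorc were lowest in immunized replicate 5, the other chondrocyte markers in replicate 3. The mean of nucleus pulposus and notochord markers was 0.52, 0.47 and 0.58 in naive and -0.17, 0.31, -0.43, -0.63 and -0.96 in immunized samples. It was lowest in replicate 5. The part of these cells in the cell cycle values was not tested.

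**Figure D4:**
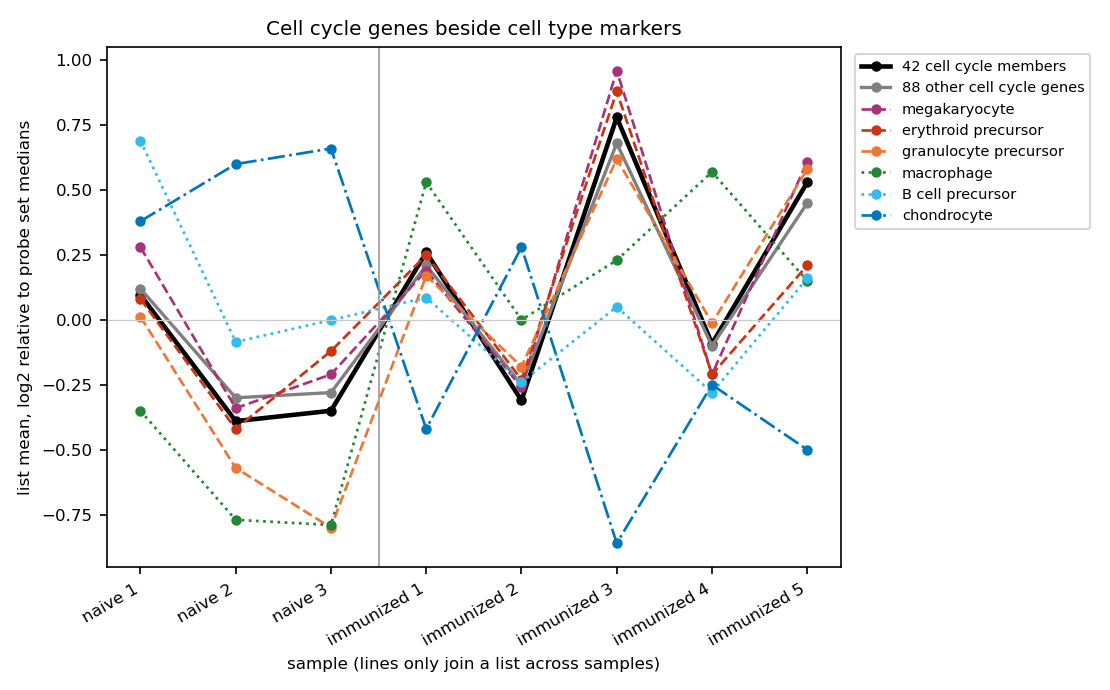
Mean log2 value of 42 cell cycle genes, of 88 other cell cycle genes and of 6 marker lists (y axis, relative to probe set medians) in each of the 8 samples (x axis). Lines join a list across samples and stand for no order. Cell cycle, megakaryocyte, erythroid and granulocyte precursor means are all highest in immunized replicate 3, where the chondrocyte mean is lowest (-0.86).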

How the data were processed

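Total RNA of 8 disc samples was hybridized to Affymetrix arrays. The authors deposited 1 expression value for each probe set on each array, made by RMA per the submitters' processing notes. RMA corrects background, quantile-normalizes the arrays and summarises probes. The version and the log base are not given in the sources used here. The deposited values were read as log2, RMA's usual scale, and every fold rests on this reading. Over the 8 arrays each probe set has a median of 0 (tolerance 5.0e-07). The table therefore holds differences from a median, and absolute signal is lost.

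The annotation of the array platform named the genes, and a RefSeq table was used to update symbols, of which it changed 0. Of 45101 probe sets, 34945 name 1 gene, 932 several and 9224 none, and the 64 controls among them were left out. A gene is the mean of the probe sets that name it alone. The set's 48 genes rest on 118 probe sets, 11 genes on 1 each.

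Groups came from the sample titles. Immunized and naive samples were compared over all genes by a two-sided moderated test in limma 3.58.1 under R 4.3.3, without covariates, adjusted by Benjamini-Hochberg over 18193 genes at a threshold of 0.05. Data were simulated for this comparison on these 18193 genes, with independent normal noise of each gene's own spread. There the test recovered 86% of changes of 1 and 99% of changes of 2 (log2), and 9 of 194 calls were false. The 48 genes of the set varied together and more widely (median SD 0.45 immunized and 0.28 naive, against 0.14 over all genes). These percentages therefore do not describe recovery within the set. The number of arrays limits the precision. No scan date or other batch was used.

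Values in all samples are given for the genes that passed, for the genes of each role with the largest and smallest moderated t, and for Mki67, Top2a, Pcna, the D cyclins and the CDK inhibitors. Of the other cell cycle genes, those that passed and the 4 per group with the largest absolute t are named. The genes, lists and tests were chosen with earlier results of these data known, so no p-value is given for a list. The alternatives were other normalizations, filters on probe sets, probe sets tested singly, other variance models, array weights, a replicate block, other thresholds and samples left out.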

Additional observations from a re-analysis of the deposited data

How the results depend on the processing

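The number of calls rested on single samples. With 3 naive samples the loss of any one ended the calls of both Mki67 and Ccnd2. Across the samples left out in turn, 0 to 7 of the 48 genes rose and 0 to 1 fell. Of the other 88 cell cycle genes, 0 to 15 rose. The 7 and the 15 came without immunized replicate 2, where 7.11% of all genes rose. The number of the 48 with no overlap ranged from 4 to 24. The 24 (23 higher and 1 lower) came without naive replicate 1, against 14.4% and 20.0% of all genes. With all samples there were 3 higher and 1 lower, against 9.39% and 14.0%. The median difference of the 48 genes stayed positive, from 0.25 to 0.50 in these omissions. Over all genes, 812 higher and 851 lower calls became 17 and 4 without naive replicate 2 and 1293 and 1710 without immunized replicate 2. For a centred table the signal over background of a probe set is known only as a coarse level. The cause of these shifts was not tested.

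Quantile normalization of the deposited values left 0 genes that rose (Mki67 0.83, adjusted p = 0.0524). Array weights gave 27 genes of the set that rose, 44 of the other cell cycle genes that rose and 1 that fell. Of all genes, 13.7% rose and 18.7% fell with these weights. Trended and robust variance gave 2 of the others that rose (4.22% of all genes). With probe sets tested singly, 2 genes of the set (Kif23 and Mki67) and 2 of the others (Rbl1 and Smc4) had a probe set that rose. Of all probe sets, 3.30% rose. A probe set with no overlap was found in 9 genes of the set (31.7% of all genes). At a threshold of 0.10, 3 genes of the set rose (Ccne2, Tyms and Mki67) and 12 of the others (8.96% of all genes). At 0.01, 0 rose and 0 fell. Without both samples with joined numbers 0 rose and 0 fell in either list, as over all genes in limma (unadjusted p under 0.05: 1621 higher, 2173 lower).

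Replicate numbers are shared between the groups, but the sample titles state no pairing. Deviations of same-numbered samples from their group means correlated at -0.05, 0.24 and -0.10. With 3 naive samples these values cannot settle whether the numbers pair the samples. With the replicate block, 0 genes of the set rose or fell and 0 of the others rose (6 higher and 1 lower over all genes), and Cdkn1c turned to 0.011. Where no gene of the set rose, the genes of the set higher at an unadjusted p under 0.05 numbered 6 with quantile normalization (12.6% of all genes), 10 with the replicate block (10.1%), 2 without both samples with joined numbers (8.91%), 12, 2 and 3 without naive replicates 1, 2 and 3 (11.2%, 10.8% and 11.5%), and 7 and 4 without immunized replicates 1 and 5 (10.7% and 11.2%). They numbered 2 without immunized replicates 3 and 5 (10.1%) and 8 without naive replicate 1 as well (10.6%).

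After the data were seen, 2 omissions were added. Without immunized replicates 3 and 5, 0 genes of the set rose, 0 fell and 0 of the others rose (0.863% of all genes rose and 0.346% fell). Differences then turned in Aurka (-0.031), Bub1b (-0.094), Ccnd1 (0.027), Ccnd3 (-0.022), Ccne1 (-0.09), Cdkn1b (-0.033), Cdkn1c (0.09), Cdt1 (-0.0096), Foxm1 (-0.024), Mad2l1 (-0.012), Mcm2 (-0.14), Mcm6 (-0.043) and Mcm7 (-0.16). Without naive replicate 1 as well, again 0 rose and 0 fell in the set and 0 of the others rose, 25 genes had no overlap (24 higher and 1 lower, against 18.1% and 25.4% of all genes), and Ccnd1 (0.014) and Cdkn1b (-0.053) turned. Without probe sets ending in _x_at or _s_at, Bub1b (-0.014) and Mcm7 (-0.021) turned. Without both samples with joined numbers, Cdkn1a (-0.078) and Mcm7 (-0.056) turned. Leaving out 1 sample turned Ccne1 (-0.017 without naive replicate 2), Cdkn1a (values from -0.048 to 0.15 over the 8 omissions) and Mcm7 (from -0.049 to 0.34). Of all values of named genes under the alternatives, 1174 kept direction and side of the threshold, 64 passed it, 28 no longer did and 29 turned.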
